A study of Drosophila melanogaster with 13 samples.

Results

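The 10 genes described here act in the recycling of phosphoinositides and in the shutoff of the light response in the fly eye. They are rdgA, laza, inaE, rdgB, rdgC, Gprk1, stops, ninaC, rtp and Calx. They were chosen by gene name, and all 10 were found among the 18344 gene models of each file. RNA was measured in whole heads of Drosophila melanogaster aged 5 days, in 13 libraries. In 5 libraries the GMR-Gal4 driver carried UAS-Rab5 RNAi, in 4 it carried UAS-Rab7 RNAi, and in the 4 controls (GMR-Gal4/WT) it carried no RNAi transgene. All 13 libraries therefore share the driver and crosses kept at 25 °C. Per the labels the driver is active in the retina of the pupa and in the eye of the adult. Each RNAi is represented by 1 genotype, so loss of its target and the background of that line cannot be told apart. The labels do not say whether libraries of a group came from separate crosses, so the spread behind the p-values, which is that between these samples, may be technical.

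Light turns rhodopsin into an active receptor that, through a G protein, switches on the phospholipase C norpA. This enzyme splits the membrane lipid phosphatidylinositol bisphosphate, and the products open the TRP channels that let calcium into the cell. To go on seeing, the photoreceptor has to do several things at once. It must rebuild the lipid through diacylglycerol, phosphatidic acid and phosphatidylinositol, return rhodopsin to its inactive state with arrestins, kinases and phosphatases, and pump calcium out again. Loss of rdgA, rdgB or rdgC makes photoreceptors degenerate, which gave these genes their name (retinal degeneration).

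Values are FPKM, a read count per gene scaled to gene length and to the library. Differences were tested on log2(FPKM + 1) with limma over the 10038 genes with a mean of at least 1 FPKM, and a gene is called at an adjusted p below 0.05. All 10 genes passed this filter, and the fewest reads behind any of their values were 492, for rtp in a Rab5 RNAi library. Recovered reads per library ran from 17138630 to 21410768. Under Rab5 RNAi the level of Rab5 itself was 57.7 FPKM ± 5.56 (SD, n = 5), against 115.5 ± 4.54 (SD, n = 4) in controls, a called difference of -0.99 in log2. For Rab7 the controls had 99.97 FPKM ± 3.93 (SD, n = 4) and the 4 libraries with the Rab7 RNAi label 97.7 ± 9.54 (SD, n = 4), a log2 difference of -0.04 (95% interval -0.21 to 0.13, limma adjusted p = 0.88). These 4 libraries are called Rab7-labelled below, and any direction given for them describes the label. Libraries also differed within groups in a way the labels do not name. Act57B, a muscle actin, lay between 1438 and 1574 FPKM in Rab5 RNAi replicates 1 and 5, Rab7-labelled replicates 1 and 4 and control replicate 4, and between 653 and 846 FPKM in the other libraries. Results that rest on Rab5 RNAi replicates 1 and 5 are given with and without them.

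In control heads the 10 genes spanned a wide range of levels. ninaC was the most abundant at 792 FPKM ± 38.6 (SD, n = 4), at rank 92 of the 10038 genes tested, and rtp followed at 530.3 ± 62.1 (SD, n = 4), at rank 129. stops had 129 FPKM ± 8.18 (SD, n = 4) and rdgA 68.4 ± 8.39 (SD, n = 4). The values of these 4 overlapped neither each other nor those of the rest. Lower neighbours did overlap: rdgC at 53.1 ± 5.07 met rdgB at 49.6 ± 4.24, as did Calx at 43.4 ± 2.49 with Gprk1 at 43.1 ± 4.94 (all SD, n = 4). laza at 24.0 ± 6.64 and inaE at 22.7 ± 0.404 (SD, n = 4) were the least abundant and overlapped as well. inaE was also the steadiest gene over control libraries, with a coefficient of variation of 1.78%.

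**Figure D1:**
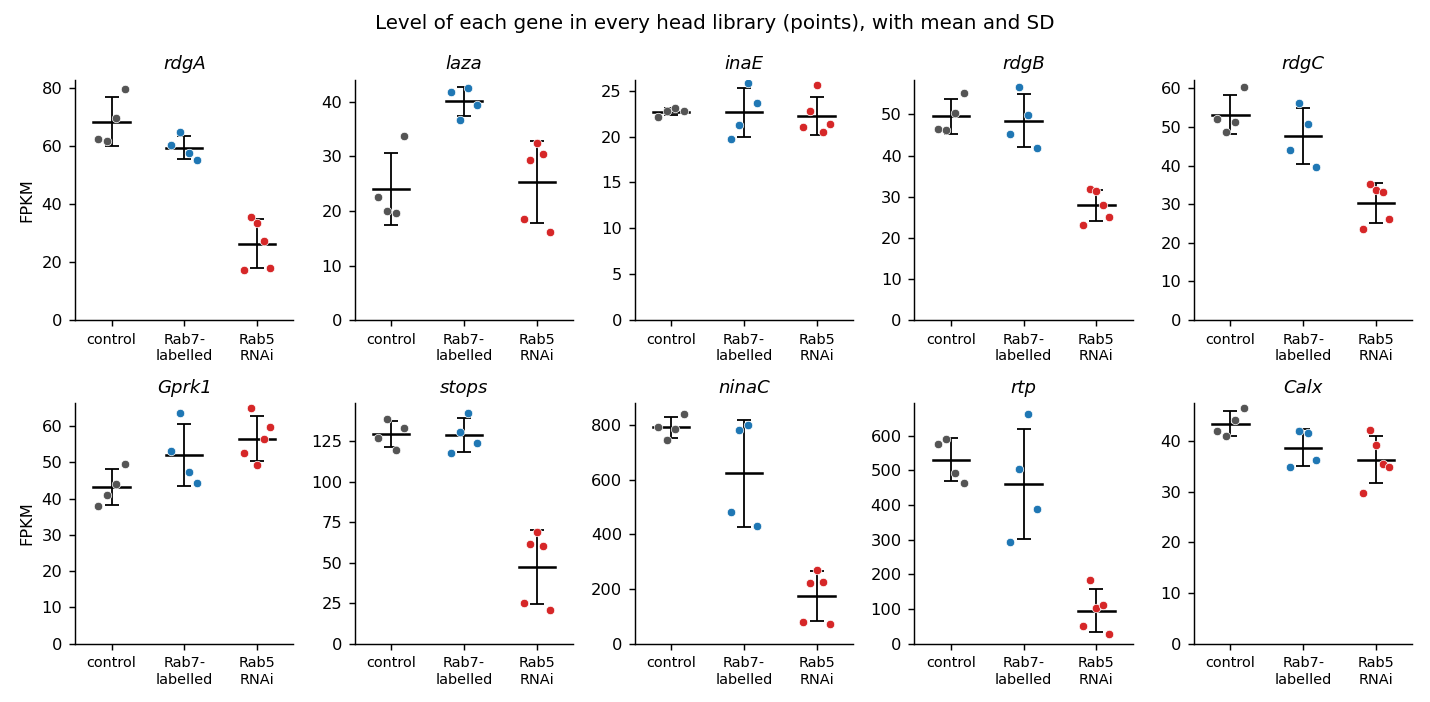
Level of each of the 10 genes in FPKM (linear axis from 0) in control, Rab7-labelled and Rab5 RNAi libraries; points are libraries, long bars the mean and error bars the SD. For rdgA, rdgB, rdgC, stops, ninaC and rtp all 5 Rab5 RNAi libraries lie below all other libraries, and for laza all 4 Rab7-labelled libraries lie above the rest.

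Rab5 RNAi against control asks how these genes stand in heads with Rab5 RNAi under the GMR-Gal4 driver, where the whole-head level of Rab5 was lower. Of the 10 genes, 6 fell (rtp, ninaC, stops, rdgA, rdgB and rdgC), 1 rose (Gprk1), and laza, inaE and Calx did not pass the test. Over all genes tested 17.5% were called, 9.28% as lower and 8.26% as higher. Of these calls 47.1% were higher, and with libraries scaled to plain totals of reads 67.6% were. The same 6 genes had groups that did not overlap, each with every Rab5 RNAi library below every control. This held for 18.6% of all genes in either direction and for 9.69% in the lower direction. The median log2 difference was -0.81 over the 10 genes and -0.01 over all genes tested. The 4 most abundant genes in controls were those with the 4 largest falls. Whole heads hold many tissues, so fewer photoreceptors and less RNA per photoreceptor cannot be told apart in any of these values. The share of reads on mt:lrRNA, the large ribosomal RNA of mitochondria, moved with the groups as well, at 3.14% to 6.72% in Rab5 RNAi and 2.82% to 5.54% in the Rab7-labelled libraries, each library above every control (1.58% to 2.61%). Its part in the differences was not tested.

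The lipid cycle begins with the diacylglycerol that phospholipase C leaves behind. rdgA encodes the diacylglycerol kinase of photoreceptors, which turns it into phosphatidic acid (FBgn0261549, X 8907068 to 9029476, plus strand; here and below the deposited coordinates, identical to those of a BDGP6 annotation). In Rab5 RNAi replicates 1 to 5 rdgA had 17.4, 35.5, 33.5, 27.4 and 17.99 FPKM. The controls 1 to 4 had 62.4, 61.8, 69.7 and 79.8 FPKM. The highest Rab5 RNAi library thus lay well under the lowest control, and replicates 1 and 5 lay lowest. In log2, rdgA fell by 1.39 (SE 0.19, limma adjusted p = 3.0e-04), to 38.5% of the control mean.

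laza encodes a phosphatase that works against rdgA by turning phosphatidic acid back into diacylglycerol (FBgn0037163, 3L 22458816 to 22461131, minus strand). Its Rab5 RNAi libraries 1 to 5 had 18.5, 29.3, 32.4, 30.4 and 16.2 FPKM. Its controls 1 to 4 had 22.6, 20.0, 19.6 and 33.7 FPKM. The groups overlapped, with Rab5 RNAi replicates 1 and 5 below every control and control replicate 4 above every Rab5 RNAi library. The log2 difference was 0.06 (SE 0.21, 95% interval -0.39 to 0.51, limma adjusted p = 0.88). Without Rab5 RNAi replicates 1 and 5 it was 0.38 (adjusted p = 0.097). It passed the test under 1 of 23 alternative settings, the fit to the 7 libraries with a negative score on the direction of variation shared within groups (log2 0.61, adjusted p = 0.0027). The score comes from these same data, and the libraries it left out include Rab5 RNAi replicates 1 and 5 and control replicate 4. This fit is therefore a description only.

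inaE encodes a diacylglycerol lipase, the other outlet for diacylglycerol, which is needed for the TRP channels to open (FBgn0261244, X 13783714 to 13811493, plus strand). It had 21.1, 22.8, 25.6, 20.5 and 21.4 FPKM in Rab5 RNAi replicates 1 to 5 and 22.2, 22.8, 23.2 and 22.8 FPKM in controls 1 to 4. The control values fall inside the range of Rab5 RNAi. The log2 difference was -0.03 (SE 0.08, limma adjusted p = 0.83), and its 95% interval ran from -0.21 to 0.15. It did not pass under any of the 23 alternative settings.

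rdgB encodes the transfer protein that brings phosphatidylinositol to the plasma membrane at its contacts with the endoplasmic reticulum and takes phosphatidic acid back (FBgn0003218, X 13762752 to 13779488, plus strand). The gene lies on the X with 4225 bases between its end and the start of inaE, on the same strand. Rab5 RNAi replicates 1 to 5 had 23.1, 31.8, 31.4, 27.9 and 25.1 FPKM. Controls 1 to 4 had 46.6, 46.2, 50.3 and 55.3 FPKM. The groups were far apart and each was tight. rdgB fell by 0.82 (SE 0.11, limma adjusted p = 2.8e-04), to 56.2% of the control mean, while its neighbour inaE stood at 97.9%.

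Shutoff of rhodopsin needs phosphate to be put on and taken off. rdgC encodes the calcium-dependent phosphatase that removes it (FBgn0265959, 3L 20248080 to 20265554, plus strand). It had 23.6, 35.2, 33.6, 33.2 and 26.0 FPKM in Rab5 RNAi replicates 1 to 5. In controls 1 to 4 it had 52.2, 48.6, 51.3 and 60.4 FPKM. Again no Rab5 RNAi library reached the lowest control. rdgC fell by 0.80 (SE 0.13, limma adjusted p = 0.0011), about as much as rdgB.

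Gprk1, a G protein-coupled receptor kinase that phosphorylates rhodopsin, was the only gene of the 10 to rise (FBgn0260798, 2R 4322295 to 4471060, minus strand). It had 52.5, 64.9, 49.4, 56.4 and 59.7 FPKM in Rab5 RNAi replicates 1 to 5 and 37.9, 41.1, 43.9 and 49.5 FPKM in controls 1 to 4. The groups met at their edges: control replicate 4 lay just above Rab5 RNAi replicate 3, and all other Rab5 RNAi libraries lay above all controls. The log2 difference was 0.38 (SE 0.12, limma adjusted p = 0.035). The call ended under 10 of 23 alternative settings, with an adjusted p of up to 0.12. Among these were the fits without control replicate 1, 2 or 3, without Rab5 RNAi replicate 2, 4 or 5, and without Rab5 RNAi replicates 1 and 5 together (adjusted p = 0.056). The log2 difference stayed between 0.33 and 0.47 in all 23.

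stops encodes a SOCS-box protein without which the light response ends slowly and the norpA protein is lost (FBgn0086704, 3R 31158156 to 31169106, minus strand). Rab5 RNAi replicates 1 to 5 had 25.1, 61.7, 68.8, 60.6 and 20.5 FPKM. Controls 1 to 4 had 127, 138, 119 and 133 FPKM. The Rab5 RNAi libraries formed a lower pair, replicates 1 and 5, and a higher trio, and both lay under all controls. stops fell by 1.59 (SE 0.31, limma adjusted p = 0.0036). Without replicates 1 and 5 the fall was 1.01 (adjusted p = 1.3e-05). The gene lies inside Gycbeta100B on the opposite strand, and the strand setting of the counting is not given in the sources used here. Gycbeta100B itself was not called, at 31.1 FPKM ± 1.42 (SD, n = 4) in controls and 30.8 ± 2.34 (SD, n = 5) in Rab5 RNAi.

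ninaC encodes a myosin with a kinase domain that sits in the rhabdomere, the light-sensing membrane stack, and is needed to end the response (FBgn0002938, 2L 7377702 to 7384344, plus strand). It had 79.0, 222, 269.8, 225 and 72.8 FPKM in Rab5 RNAi replicates 1 to 5. In controls 1 to 4 it had 793, 747, 786 and 841 FPKM. The controls were tight and every Rab5 RNAi library lay far below them, replicates 1 and 5 furthest. ninaC fell by 2.38 (SE 0.38, limma adjusted p = 9.4e-04), to 21.9% of the control mean.

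rtp encodes retinophilin, a protein of MORN repeats that binds ninaC and is held in the rhabdomere with it (FBgn0087005, 3R 5236092 to 5237315, minus strand). In Rab5 RNAi replicates 1 to 5 it had 50.3, 184, 103, 113 and 27.2 FPKM. In controls 1 to 4 it had 576, 589, 494 and 462 FPKM. Its values in Rab5 RNAi were the most scattered of the 10 genes, with a coefficient of variation of 64.0%, yet the highest was well under the lowest control. rtp fell by 2.73 (SE 0.44, limma adjusted p = 0.0011), to 17.99% of the control mean. Its end overlaps Mms19 on the opposite strand, which was not called, at 9.31 FPKM ± 0.682 (SD, n = 4) in controls and 10.1 ± 1.51 (SD, n = 5) in Rab5 RNAi.

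Calx encodes the sodium/calcium exchanger that drives calcium out of the photoreceptor after light (FBgn0013995, 3R 20978183 to 21015613, plus strand). It had 29.8, 42.1, 39.2, 35.5 and 34.9 FPKM in Rab5 RNAi replicates 1 to 5 and 41.9, 41.0, 44.1 and 46.6 FPKM in controls 1 to 4. Most Rab5 RNAi libraries lay under the controls, but replicate 2 lay among them. The log2 difference of -0.26 (SE 0.10, limma adjusted p = 0.082) did not pass. It passed under 2 of 23 alternative settings, with the shared direction of variation as a covariate (adjusted p = 0.021) and without Rab5 RNAi replicate 2 (adjusted p = 0.039). That covariate was taken from deviations within the groups of these same libraries. It left the log2 difference unchanged and altered only the SE, so this pass is not independent support.

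**Figure D2:**
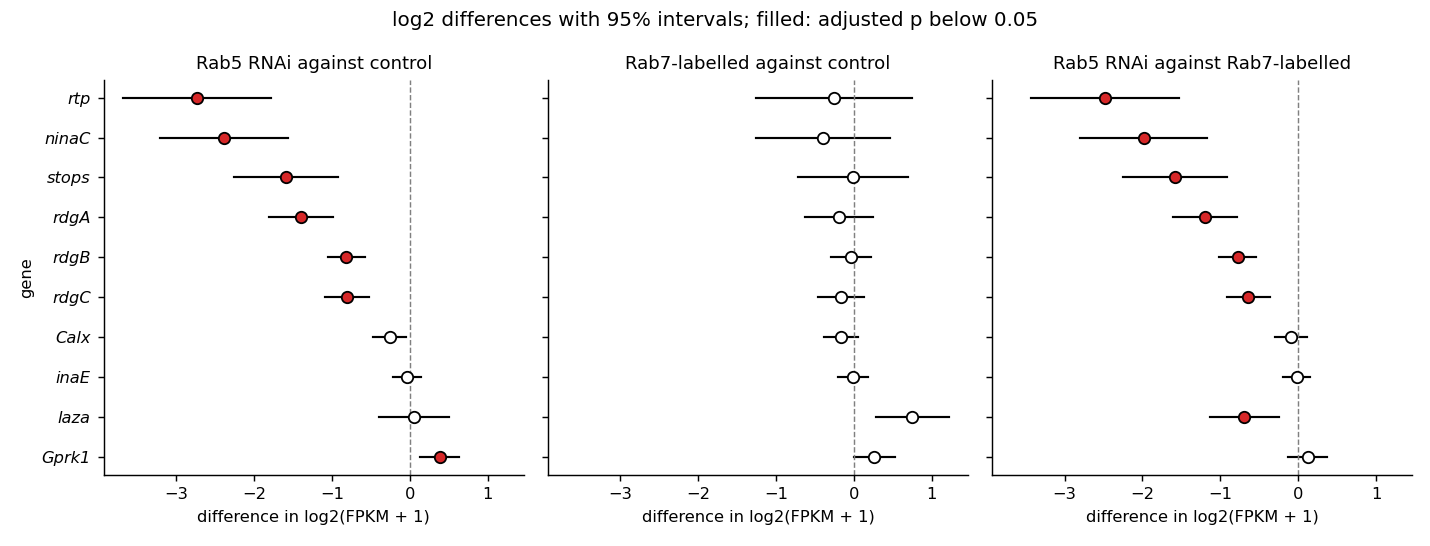
Difference of each gene in log2(FPKM + 1) (x axis) for the 3 comparisons, with 95% intervals from limma; filled points are called at an adjusted p below 0.05. In Rab5 RNAi against control the points run from -2.73 for rtp to 0.38 for Gprk1, and in Rab7-labelled against control no point is filled.

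The Rab5 RNAi libraries differed among themselves. Replicates 1 and 5 lay below replicates 2, 3 and 4 for 8 of the 10 genes, all but inaE and Gprk1. For Act57B they lay above them, at 1486 and 1541 against 667 to 709 FPKM. How many of all genes split in this way was not counted, so the 8 are not set against a share. Replicates 1 and 5 also had the highest scores, 0.479 and 0.532, on the direction of variation shared within groups. That direction held 35.3% of the within-group variance of the genes tested. The summed FPKM of 17 core phototransduction genes was 2562 and 2223 in replicates 1 and 5 and 7045 to 9214 in replicates 2 to 4, against 35254 to 46494 in controls. The part of this shared variation in the falls was not tested, but each of the 6 falls was called without the 2 libraries. The log2 differences were then -2.03 for rtp, -1.73 for ninaC, -1.01 for stops, -1.07 for rdgA, -0.69 for rdgB and -0.62 for rdgC. Over all genes the count called was 2308 without them and 1761 with them. All 6 falls were called in each of the 23 alternative settings.

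**Figure D3:**
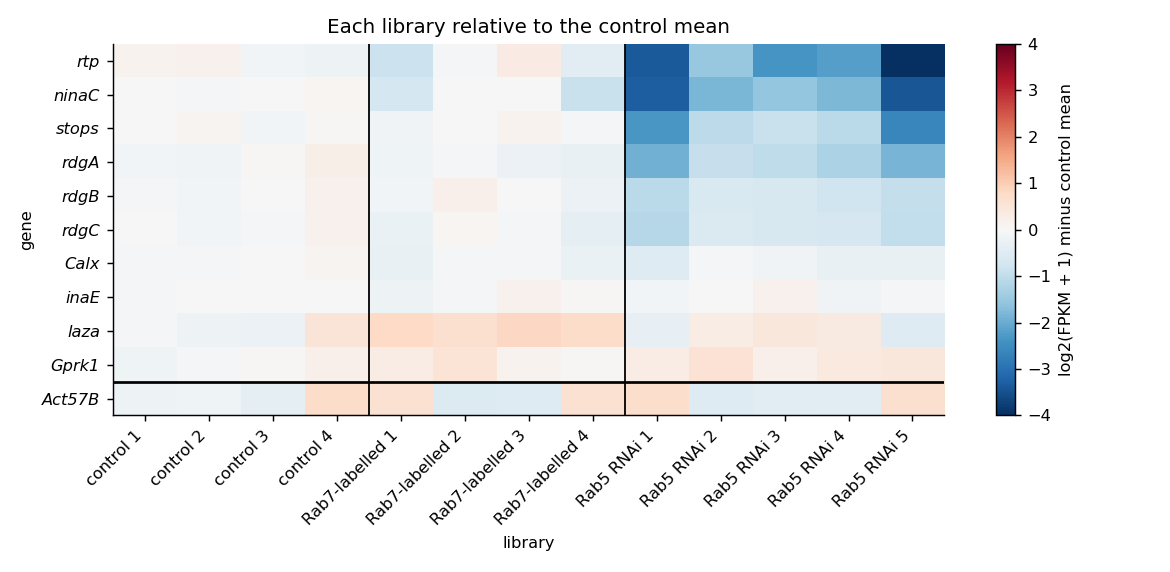
log2(FPKM + 1) of each gene in each library minus the mean of the controls (colour scale, blue lower and red higher), with the muscle actin Act57B under the black line. rtp, ninaC and stops are each lowest in Rab5 RNAi replicates 1 and 5, the same 2 Rab5 RNAi libraries that are high for Act57B.

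The Rab7-labelled libraries were compared with the same 4 controls. None of the 10 genes was called by limma, where 3.21% of all genes were. The median log2 difference was -0.10 over the 10 genes and -0.01 over all genes. laza had 41.8, 36.7, 42.5 and 39.4 FPKM in Rab7-labelled replicates 1 to 4, each above every control, but did not pass the test. It was the only gene of the 10 whose groups did not overlap, a share no higher than the 13.8% of all genes for which this held (6.87% in the higher direction). Its log2 difference was 0.75 (SE 0.22, 95% interval 0.28 to 1.22, limma adjusted p = 0.084). It passed under 7 of 23 alternative settings, and its adjusted p ran from 0.0025 to 0.24 over the 23. Among the 7 were the fits without control replicate 4, the highest control (log2 0.92, adjusted p = 0.032), without Rab5 RNAi replicate 5 (adjusted p = 0.049) and without Rab5 RNAi replicates 1 and 5 (adjusted p = 0.0088). Rab5 RNAi libraries do not enter this log2 difference, which stayed at 0.75 without them. Leaving them out altered only the SE (0.14 without replicates 1 and 5), so these passes are not independent support. The lowest adjusted p, 0.0025, was that of the libraries with a negative score on the shared direction, a description only.

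The genes with the largest falls in Rab5 RNAi gave no call in the Rab7-labelled libraries. ninaC had 482, 781, 799.9 and 429.9 FPKM in Rab7-labelled replicates 1 to 4, a log2 difference of -0.40 (SE 0.40, limma adjusted p = 0.68). Replicates 1 and 4 lay below all controls and replicates 2 and 3 among them. rtp split the same way, with 293, 504, 661 and 389 FPKM and a log2 difference of -0.26 (SE 0.46, limma adjusted p = 0.85), and its replicate 3 lay above all controls. Replicates 1 and 4 were also the Rab7-labelled libraries with high Act57B, at 1438 and 1445 FPKM against 653 and 666, and whether the split shares its source was not tested. In the 7 libraries with a negative score on the shared direction, Rab7-labelled replicates 2 and 3 stood against control replicates 2 and 3. The log2 difference was then 0.04 for ninaC and 0.10 for rtp. That score comes from these same data, so this fit is a description only.

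stops was close to its control level in every Rab7-labelled library, at 118, 131, 142 and 124 FPKM (log2 -0.01, 95% interval -0.71 to 0.69, limma adjusted p = 0.99). rdgA had 60.4, 64.7, 57.8 and 55.1 FPKM (log2 -0.19, SE 0.20, adjusted p = 0.70), partly under its controls. rdgB, at 45.3, 56.8, 49.8 and 41.8 FPKM, spread to both sides of its controls (log2 -0.04, adjusted p = 0.92), and so did inaE, at 19.8, 21.2, 25.9 and 23.7 FPKM (log2 -0.01, adjusted p = 0.97). The interval of rdgB, -0.29 to 0.21, does not reach the fall of 0.82 seen in Rab5 RNAi.

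For rdgC the 4 values were 44.1, 56.1, 50.6 and 39.7 FPKM (log2 -0.16, limma adjusted p = 0.62). Calx had 34.8, 42.0, 41.5 and 36.2 FPKM (log2 -0.17, adjusted p = 0.44). Gprk1 had 53.2, 63.7, 47.3 and 44.4 FPKM (log2 0.26, SE 0.12, adjusted p = 0.29), with replicates 1 and 2 above all controls. In each of these 3 genes the groups overlapped.

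Rab5 RNAi and the Rab7-labelled libraries were compared directly, so that a fall in the first could be tested against the second rather than against a missing call. Of the 10 genes, 7 were lower in Rab5 RNAi and none was higher, where 11.1% of all genes were called, 6.4% as lower and 4.67% as higher. Of these calls 42.2% were higher, and 74% with plain totals of reads, which put the median log2 difference of all genes at 0.11; the 6 genes other than laza named next were called lower under both scalings. The same 7 had groups that did not overlap, which held for 11.5% of all genes and for 6.57% in the lower direction. The largest differences were those of rtp (log2 -2.48, SE 0.44, limma adjusted p = 0.0030) and ninaC (-1.99, SE 0.38, adjusted p = 0.0046). stops differed by -1.58 (SE 0.31, adjusted p = 0.0055), rdgA by -1.20 (SE 0.19, adjusted p = 0.0013), rdgB by -0.78 (SE 0.11, adjusted p = 6.1e-04) and rdgC by -0.64 (SE 0.13, adjusted p = 0.0068). Without Rab5 RNAi replicates 1 and 5 the 6 were still called, and stops then differed by -1.002.

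laza was the seventh (log2 -0.69, SE 0.21, limma adjusted p = 0.049). That call ended under 16 of 23 alternative settings, with an adjusted p of up to 0.13. It ended when any 1 of the 4 Rab7-labelled libraries, of controls 1 to 3, or of Rab5 RNAi replicates 1 and 5 was left out. Without Rab5 RNAi replicates 1 and 5 together the difference was -0.37 (adjusted p = 0.13). The other 3 genes did not differ by the test. Gprk1 differed by 0.12 (95% interval -0.13 to 0.37), Calx by -0.09 (-0.30 to 0.12) and inaE by -0.02 (-0.20 to 0.16).

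Ratios within a library show how the RNA of opposing enzymes, or of partners, stood to each other in whole heads. These 3 pairs were chosen after their values were seen and are given without a test. The part of the tissue make-up of the head in these ratios was not tested. The ratio of rdgA, the kinase that makes phosphatidic acid, to laza, the phosphatase that removes it, was 2.76, 3.09, 3.56 and 2.36 in controls 1 to 4. It was 1.44, 1.76, 1.36 and 1.398 in the Rab7-labelled libraries. In Rab5 RNAi it was 0.943, 1.21, 1.03, 0.902 and 1.11. No 2 groups overlapped, and the spread in Rab5 RNAi, 1.04 ± 0.126 (SD, n = 5), was small although both genes varied widely there. Of the genes in this ratio, rdgA was called in Rab5 RNAi against control, and laza was called in neither comparison with control.

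The ratio of Gprk1, the kinase, to rdgC, the phosphatase, went the other way. It was 0.812 ± 0.0591 (SD, n = 4) in controls, 1.10 ± 0.116 (SD, n = 4) in the Rab7-labelled libraries and 1.91 ± 0.351 (SD, n = 5) in Rab5 RNAi. The ranges were 0.726 to 0.856, 0.934 to 1.21 and 1.47 to 2.29, so again no 2 groups overlapped. Both genes were called in Rab5 RNAi against control, Gprk1 with a call that ended under 10 of 23 alternative settings. Neither Gprk1 nor rdgC was called in Rab7-labelled against control. The ratio of the partners rtp and ninaC was 0.673 ± 0.106 (SD, n = 4) in controls, 0.746 ± 0.143 (SD, n = 4) in the Rab7-labelled libraries and 0.545 ± 0.192 (SD, n = 5) in Rab5 RNAi, with all 3 ranges overlapping.

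**Figure D4:**
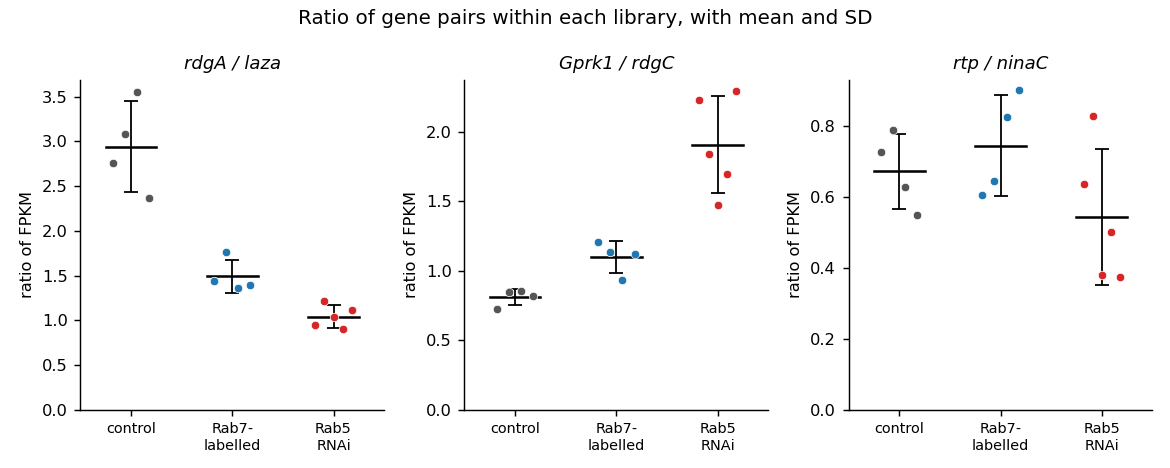
Ratio of FPKM of rdgA to laza, Gprk1 to rdgC and rtp to ninaC within each library (linear axes from 0); points are libraries, long bars the mean and error bars the SD. The rdgA to laza ratio steps down from 2.94 in controls to 1.49 and 1.04, the Gprk1 to rdgC ratio steps up from 0.812 to 1.10 and 1.91, and the rtp to ninaC ratio overlaps between groups.

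laza lies in a cluster of related genes. Within 16977 bases of 3L, 5 of 6 gene models (laza, CG11438, CG11437, CG11426 and CG11425) carry the PAP2 phosphatase domain in the deposited table. Reads from such related genes could be split between them in the counting, which was not checked. Their values may then be less certain than those of the other genes. The genes of the cluster did not move alike.

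CG11426 had 69.8, 76.98, 69.3 and 40.3 FPKM in controls 1 to 4 and 27.1, 39.4, 41.2 and 31.8 FPKM in the Rab7-labelled libraries. It fell there by 0.84 (SE 0.18, limma adjusted p = 0.025), although control replicate 4 lay among the Rab7-labelled values. In Rab5 RNAi it had 24.2 FPKM ± 2.21 (SD, n = 5) and fell by 1.33 (SE 0.17, adjusted p = 2.1e-04). CG11425 was higher in both, at 10.7 FPKM ± 0.936 (SD, n = 4) in controls, 20.7 ± 3.04 (SD, n = 4) in the Rab7-labelled libraries and 20.0 ± 3.72 (SD, n = 5) in Rab5 RNAi. It rose by 0.88 (SE 0.13, limma adjusted p = 0.0023) and by 0.83 (SE 0.12, adjusted p = 5.8e-04). The 2 comparisons share the controls. All 4 of these directions held with libraries scaled to plain totals of reads and with quantile normalization. CG11438 was not called in either comparison (log2 0.47 and 0.59). It was called in Rab5 RNAi against control once Rab5 RNAi replicates 1 and 5 were left out (log2 0.95, adjusted p = 0.0077). CG11437 stayed under the filter on low values and was not tested.

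**Figure D5:**
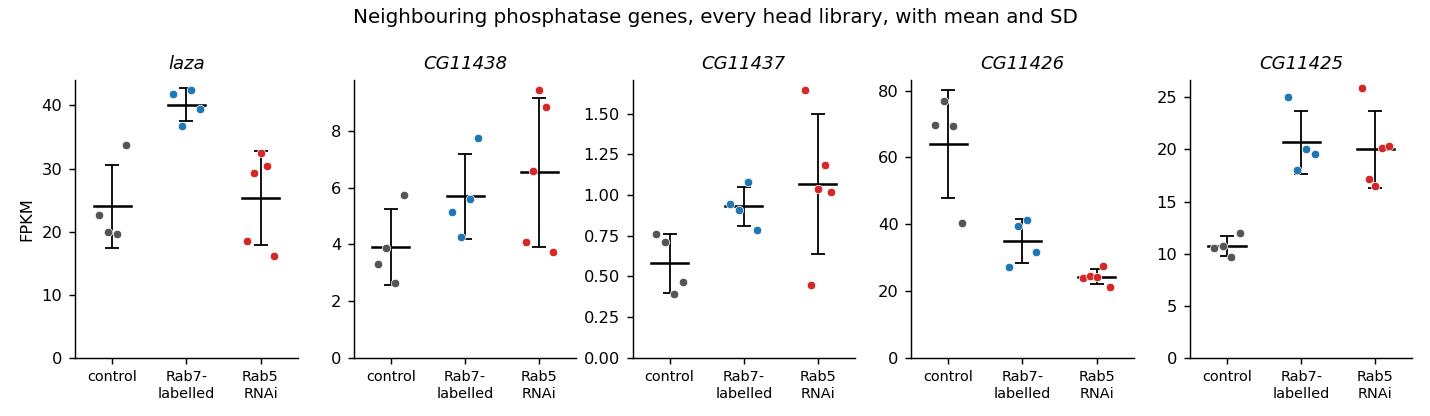
FPKM of laza and the 4 other PAP2 domain genes of its cluster on 3L in every library (linear axes from 0, each with its own scale); long bars are means and error bars the SD. In the Rab7-labelled libraries laza and CG11425 lie above all controls, while CG11426 lies below 3 of the 4 controls.

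The wider lipid cycle moved in both directions. Of 31 further genes of the phosphoinositide cycle 30 were tested, and in Rab5 RNAi against control 4 rose and 8 fell, with a median log2 difference of 0.00. The falls with the lowest adjusted p were those of Cds, which makes CDP-diacylglycerol from phosphatidic acid (log2 -0.82, SE 0.09, limma adjusted p = 5.0e-05), of norpA, the phospholipase C (-1.82, SE 0.22, adjusted p = 1.2e-04), of CG11426 and of Sac1, a phosphatase of phosphatidylinositol 4-phosphate (-0.75, SE 0.10, adjusted p = 2.2e-04). Pis, the phosphatidylinositol synthase that follows Cds, fell by 0.63, and Dgkepsilon, another diacylglycerol kinase, by 0.45. The genes that rose were sktl, a phosphatidylinositol 4-phosphate 5-kinase (0.55, SE 0.08, adjusted p = 3.3e-04), CG11425, Pi4KIIalpha, a phosphatidylinositol 4-kinase (0.30, adjusted p = 0.036), and Esyt2, a tether between endoplasmic reticulum and plasma membrane (0.66, adjusted p = 0.046). Without Rab5 RNAi replicates 1 and 5 the counts were again 4 and 8, of which 11 genes were shared; Pi4KIIalpha was lost (adjusted p = 0.087), CG11438 was added and Esyt2 rose by 1.04. The groups of Esyt2 overlapped with all libraries, and its call ended without control replicate 4 (adjusted p = 0.062).

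In the Rab7-labelled libraries 2 of the 30 rose and 2 fell against control. All 4 are PAP2 phosphatases like laza. wun rose by 0.35 (SE 0.07, limma adjusted p = 0.021) along with CG11425, and wun2 fell by 0.67 (SE 0.15, adjusted p = 0.026) along with CG11426. Without control replicate 4 the call of wun2 ended (adjusted p = 0.057). Between Rab5 RNAi and the Rab7-labelled libraries 2 were higher (sktl and Pld) and 6 lower in Rab5 RNAi, led by Sac1 (log2 -0.97, SE 0.10, adjusted p = 4.9e-05) and Cds (-0.65, SE 0.09, adjusted p = 4.1e-04). With plain totals of reads 4 were higher (sktl, Pld, rdgBbeta and wun2) and 5 lower, and wun was not called (adjusted p = 0.14). The call of Pld ended without Rab5 RNAi replicates 1 and 5 (adjusted p = 0.13).

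Among 22 further genes of shutoff and calcium handling, 2 rose and 4 fell in Rab5 RNAi against control, with a median log2 difference of -0.05. The falls were those of the arrestins that cap active rhodopsin, Arr1 (log2 -3.26, SE 0.41, limma adjusted p = 1.9e-04) and Arr2 (-2.85, SE 0.41, adjusted p = 4.9e-04), of the F-box protein gene Fbxl4 (-1.37, SE 0.21, adjusted p = 7.2e-04) and of calmodulin, Cam (-0.39, SE 0.10, adjusted p = 0.020). The call of Cam ended without Rab5 RNAi replicates 1 and 5 (adjusted p = 0.052) and without control replicate 4 (adjusted p = 0.057), and with quantile normalization its difference was -0.22 (adjusted p = 0.22). The rises were those of Socs36E (0.91, SE 0.08, adjusted p = 1.2e-05) and Socs44A (0.34, SE 0.07, adjusted p = 0.0057), SOCS-box genes like stops, which moved the opposite way. Gprk2, the other receptor kinase of this type, had 23.5 and 22.5 FPKM in Rab5 RNAi and controls and was not called. None of the 22 was called in the Rab7-labelled libraries against control, but EloC was called higher once Rab5 RNAi replicates 1 and 5 were left out (log2 0.32, adjusted p = 0.035). The log2 difference of EloC was also 0.32 with all libraries (adjusted p = 0.14), since Rab5 RNAi libraries alter only its SE. Against the Rab7-labelled libraries Rab5 RNAi had 1 higher and 4 lower genes, again Socs36E against Arr1, Arr2, Fbxl4 and Cam. With plain totals of reads 4 were higher there (Socs36E, CaMKII, Socs44A and MCU) and the same 4 lower. With quantile normalization 2 were higher (Socs36E and CaMKII) and 3 lower, and Cam was not called (adjusted p = 0.21).

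Transcripts of the core light response machinery were lower in Rab5 RNAi. Of 17 core phototransduction genes, which include Arr1, Arr2, Cam and norpA, 16 fell in Rab5 RNAi against control, with a median log2 difference of -2.51. Those with the lowest adjusted p were the ultraviolet rhodopsins Rh4 (log2 -4.02, limma adjusted p = 9.9e-06) and Rh3 (-1.79, adjusted p = 1.3e-05) and the G protein subunit genes Ggamma30A (-1.21, adjusted p = 4.3e-05) and Gbeta76C (-2.62, adjusted p = 4.9e-05). Rh6, the rhodopsin of some of the central R8 cells, had 208.6 FPKM ± 64.7 (SD, n = 5) against 282 ± 36.3 (SD, n = 4) and was not called. Without Rab5 RNAi replicates 1 and 5, 13 of the 17 fell, and Rh5, Galphaq and Cam no longer passed. None was called in the Rab7-labelled libraries against control (median -0.45). inaC was called lower there without Rab5 RNAi replicates 1 and 5 (log2 -0.52, adjusted p = 0.045). With all libraries the difference of inaC was the same, -0.52 (adjusted p = 0.52), since Rab5 RNAi libraries alter only its SE. Between the libraries with RNAi labels 14 were lower in Rab5 RNAi than in the Rab7-labelled libraries. The falls of rtp and ninaC thus lay near the median of the 17, those of stops and rdgA were smaller, and those of rdgB and rdgC smaller again.

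Marker lists of the cell types of the head moved as follows, and their part in the changes of the 10 genes was not tested. Of 11 photoreceptor structure genes 8 fell in Rab5 RNAi against control, among them chp and eys (log2 -2.07 and -1.09), none was called in the Rab7-labelled libraries, and 8 were lower in Rab5 RNAi than there. Their summed FPKM was 178 to 369.9 in Rab5 RNAi, 497 to 652 in the Rab7-labelled libraries and 616 to 740.4 in controls. Of 10 pigment and cone cell genes 5 fell in Rab5 RNAi, led by Pdh (log2 -5.18), and 1 rose in the Rab7-labelled libraries (Crys, 1.52), while 5 were lower in Rab5 RNAi than there. Their sum was 103 to 161 FPKM in Rab5 RNAi, 403 to 656 in the Rab7-labelled libraries and 501 to 743 in controls. Of 10 neuronal genes 2 fell in Rab5 RNAi (nSyb and futsch, log2 -0.57 and -0.38) and none was called in the Rab7-labelled libraries, and the sums were 563 to 710.5, 647 to 907 and 769 to 878 FPKM in Rab5 RNAi, Rab7-labelled libraries and controls. Of 10 glial genes 1 fell in each comparison with control (alrm and Gat), with sums of 557 to 785, 573 to 641 and 726 to 884 FPKM. Without control replicate 4 neither glial fall was called. Without Rab5 RNAi replicates 1 and 5, 5 glial genes fell in each comparison with control, and 1 glial gene rose in Rab5 RNAi. Leaving these replicates out does not change a log2 difference between Rab7-labelled libraries and controls, only its SE. In that setting 1 neuronal gene fell in Rab5 RNAi. Of the photoreceptor structure genes 7 then fell and 1 rose in Rab5 RNAi against control, and of the pigment and cone cell genes 6 fell and 1 rose.

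None of 10 muscle genes was called in any comparison, and the sums overlapped at 2107 to 3944, 2064 to 3898 and 2370 to 3772 FPKM. Of 7 fat body genes tested 4 fell in Rab5 RNAi (Lpin and Yp3 among them) and none was called in the Rab7-labelled libraries. The sums over all 10 listed were 269 to 573, 568 to 617 and 506 to 785 FPKM, and within Rab5 RNAi replicates 1 and 5 had 554 and 573 against 269 to 298 in the others. Without these replicates 5 of the 7 fell (median log2 difference -0.86). With plain totals or quantile normalization 2 of the 4 fat body falls were called. Of 9 hemocyte genes tested 1 rose in Rab5 RNAi (lz) and 4 fell in the Rab7-labelled libraries (PPO1 and Sr-CI among them). Without control replicate 4, 2 of these 4 falls were called, PPO1 and Sr-CI. Hemocyte sums were 63.8 to 111, 52.9 to 68.3 and 74.3 to 104 FPKM. Between Rab5 RNAi and the Rab7-labelled libraries 4 hemocyte genes were higher in Rab5 RNAi, while 2 fat body genes and 1 neuronal gene were lower. No glial gene was called there with all libraries and the deposited scaling. Gat was called higher in Rab5 RNAi than in the Rab7-labelled libraries with plain totals of reads or without control replicate 4. The glial gene moody was called higher there without Rab5 RNAi replicates 1 and 5. No listed marker was at 0 throughout a group.

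The patterns of the 4 genes with called falls of at least 1 on the log2 scale were set against those of 10028 other genes over all 13 libraries. Likeness was the root-mean-square difference in log2(FPKM + 1) after subtracting each gene's control mean, and it is a description, since all genes come from the same libraries. Closest to ninaC were Cpn, a calcium-binding protein of photoreceptors (0.15), inaC, the eye's protein kinase C (0.16), and t (tan), which recycles the transmitter histamine (0.24). Closest to rtp were trp, the light-gated channel (0.28), inaD, the scaffold that holds the channel complex (0.31), and Arr2 (0.32). The nearest genes to stops were CG9427 (0.17), CG8419 (0.25) and Osi9 (0.26). Those nearest to rdgA were Mob2 (0.18), CG7220 (0.21) and CG4660 (0.22). Cpn fell from 223 to 43.7 FPKM and Mob2 from 133 to 62.0 FPKM between controls and Rab5 RNAi.

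By the same measure rdgB and rdgC were the closest of all 45 pairs of the 10 genes, with a difference of 0.09. They lie on different chromosomes and belong to different steps. Genes with small changes score close by this measure, and pairs among all genes were not counted. inaE and Calx followed at 0.20 and rdgA and stops at 0.29. rtp and ninaC, whose products bind each other, differed by 0.39, and the most distant pair was Gprk1 and rtp at 2.06.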

How the data were processed

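The authors deposited FPKM for 18344 gene models in 13 head libraries, and a series table with coordinates, lengths and domains, of which 13 further columns of per-sample values were not used. Per the labels' protocols, a SMARTer kit for mRNA and 1.3 ug of total RNA served for each library. The submitters' processing notes name CASAVA. The sources used here give no aligner, counter, strand setting, build or annotation.

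All 182918 deposited FPKM values above 0 were whole multiples of 1 read per library (tolerance 0.05 read, largest deviation 0.000132). The libraries had been scaled by median-of-ratios size factors (largest relative difference 1.21e-10 over 11577 genes). A gene of 1 kilobase with 1 read has about 0.05 FPKM.

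log2(FPKM + 1) of the 10038 genes with a mean of at least 1 FPKM was fitted over all 3 groups with limma 3.58.1 (trend, robust) in R 4.3.3. The fit was run on simulated data in which every gene had the same dispersion, and wider spreads were not simulated. It recovered 42.4% to 46.9% of 1.5-fold changes and 93.75% to 97.2% of 2-fold changes over the 3 comparisons. Of its calls 3.49% to 5.29% were false. p-values were adjusted by Benjamini-Hochberg within each comparison. The pseudocount of 1 understates changes of low genes. SE is limma's standard error. Alternatives changed the pseudocount, the filter, the scaling, the groups fitted or the libraries. The genes and marker lists were chosen with earlier results of these data known. From each pathway list up to 4 called genes per direction with the lowest adjusted p were named, and from each marker list up to 2 genes, not ranked by p. Pis, Dgkepsilon, the cluster of laza, Rh5, Rh6, Galphaq, Gprk2, Sr-CI and Act57B were named after their values were seen.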

Additional observations from a re-analysis of the deposited data

How the results depend on the processing

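Over 23 alternatives, 654 of 690 log2 differences of the 10 genes kept their call and, where called, their direction. In 28 of the 358 that were called under neither setting the sign changed. None of the called differences reversed, and the 6 falls in Rab5 RNAi against control were called throughout. The covariate could not change a log2 difference, because its score comes from deviations within the groups of these same libraries. That setting alters only the SE, and its higher counts of calls below follow from that. Leaving out Rab5 RNAi replicates 1 and 5 together was chosen after seeing the data. In Rab7-labelled against control that setting too left every log2 difference unchanged and altered only the SE. The calls of Gprk1, laza and Calx that changed are given above; the cause was not tested. Of the 10 genes, the number called in Rab7-labelled against control went from 0 to 1, laza, with only the groups compared, the replicate block, the shared direction as a covariate, the 7 libraries with a negative score on it, or Rab5 RNAi replicates 1 and 5 left out, and ran from 0 to 1 with each library left out. Over all genes, 322 were called in Rab7-labelled against control. The count was 559 with only the groups compared, 795 with the covariate, 621 without Rab5 RNAi replicates 1 and 5, and 167 to 381 with each library left out, moving by over 1.5 times without Rab7-labelled replicate 1 (179) or 4 (193) or control 1 (177), 2 (197) or 3 (167). For Rab5 RNAi against Rab7-labelled it was 1111, then 682 with only the groups compared, 1890 with the covariate and 725 (without Rab7-labelled replicate 3) to 1064 with each library left out. For Rab5 RNAi against control it was 1761, and 1176 to 1778 with each library left out. Plain totals of reads put the median log2 difference of all genes at 0.07, -0.03 and 0.11 in Rab5 RNAi against control, Rab7-labelled against control and Rab5 RNAi against Rab7-labelled, where the deposited scaling gave -0.01, -0.01 and 0.01.

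The replicate numbers were checked for pairing: over 12 same-numbered pairs the correlation of deviations ran from -0.159 to 0.303, 7 were over 0.1, and 4 of 12 libraries correlated best with their own number, so they were not taken to pair the libraries. With the replicate block 1949, 424 and 1171 genes were called. It ended the call of Gprk1 in Rab5 RNAi against control (adjusted p = 0.058) and of laza in Rab5 RNAi against Rab7-labelled (0.076), and called laza in Rab7-labelled against control (0.048). Every value of the 10 genes rests on at least 492 reads.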
